A study of Macaca mulatta with 13 samples.

Results

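Mitochondrial ribosomal protein genes were examined in thigh muscle of aged male rhesus monkeys (Macaca mulatta) on a control diet or on calorie restriction (CR). A gene was included where a probe set of the array was annotated with exactly 1 symbol, and that symbol began with MRPL or MRPS followed by a digit. This gave 62 genes among 14132 genes with a probe set of their own, namely 40 MRPL genes, named for the large ribosomal subunit, and 22 MRPS genes, named for the small one. They were represented by 97 probe sets, and each gene was described by its brightest probe set, taken as the highest mean log2 signal over all arrays. The tissue was vastus lateralis, an outer muscle of the thigh. The 5 control animals were 27 to 30 years old and the 8 CR animals 27 to 32 years old, ages being given per group only. The duration stated for the restriction was 18.5 years, and each animal gave 1 one-colour Affymetrix array.

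The mitochondrial ribosome translates the few messages of the mitochondrial genome, which encode core subunits of the respiratory chain and of ATP synthase. Its RNAs are made inside the organelle, but every one of its proteins is encoded in the nucleus, made in the cytosol and imported. The small subunit binds the message and checks the match of codon and transfer RNA. The large subunit joins amino acids and passes the new chain to the inner membrane. Compared with the bacterial ribosome it carries less RNA and more protein, and many of its proteins have no bacterial counterpart. In skeletal muscle it serves the respiratory chain, and in worms a lower dose of the counterpart of MRPS5 is known to lengthen life.

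The muscle markers were bright in these arrays, with mean signals of 96067 for myoglobin (MB) and 78175 for muscle creatine kinase (CKM). Of the genes listed for other organs, APOA1, a liver gene, had a mean signal of 15.3, but GFAP had 398.7. Signals are linear MAS5 values whose trimmed mean was 500 on each array, and all comparisons below are on the log2 scale. Probe sets in the dimmer 50% by mean log2 signal were not tested, which kept 26383 probe sets and 9812 named genes. Of the 62 genes, 61 passed this filter, all 22 MRPS genes and 39 of the 40 MRPL genes. MRPL58, a peptidyl-tRNA hydrolase built into the large subunit, had a mean signal of 70.2 and fell below it. Its log2 signals ran from 4.39 to 7.52 in controls and from 4.50 to 6.97 in CR, so the diets overlapped. Muscle pieces hold several cell types, so fewer cells of a type and less RNA per cell cannot be told apart.

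Mitochondrial ribosomal protein transcripts did not differ detectably between the diets. In the large subunit 29 of 39 genes had a higher mean in CR, with a median log2 difference (CR minus control) of 0.091. In the small subunit 15 of 22 did, with a median of 0.057. Over all 9812 genes the share with a higher mean in CR was 49.8% and the median -0.0016 (48.1% over the probe sets tested), and over the 6237 genes among the brightest 25% of probe sets, to which 59 of the 61 belong, they were 53.9% and 0.019. With limma's moderated test and Benjamini-Hochberg adjustment over all probe sets, 0 of 61 genes were called, against 0% of the 26383 probe sets tested. At an unadjusted p under 0.05 limma gave 0 of 61 genes, against 2.43% of probe sets (1.25% higher and 1.18% lower in CR) and 1.82% of genes. An exact rank-sum test gave 1 of 61, against 2.48% of probe sets. The single gene was MRPL40, with p = 0.0451 in the exact two-sided rank-sum test and an adjusted p of 1. The control and CR ranges overlapped for each of the 61 genes, and 0.072% of all probe sets did not overlap.

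The intervals give the differences compatible with the values of each gene, not the size of difference that the adjusted test would have called. The 95% interval of the difference, not adjusted for the number of genes, included 0 for 61 of 61 genes. For 58 of 61 it lay within a 2-fold change in either direction, and for 44 of 61 within a 1.5-fold change. The exceptions to the 2-fold bound were MRPL54, MRPS26 and MRPS6. The median residual SD within diets was 0.30 for the 61 genes, against 0.36 for the brightest 25% of probe sets and 0.45 for all tested probe sets.

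**Figure D1:**
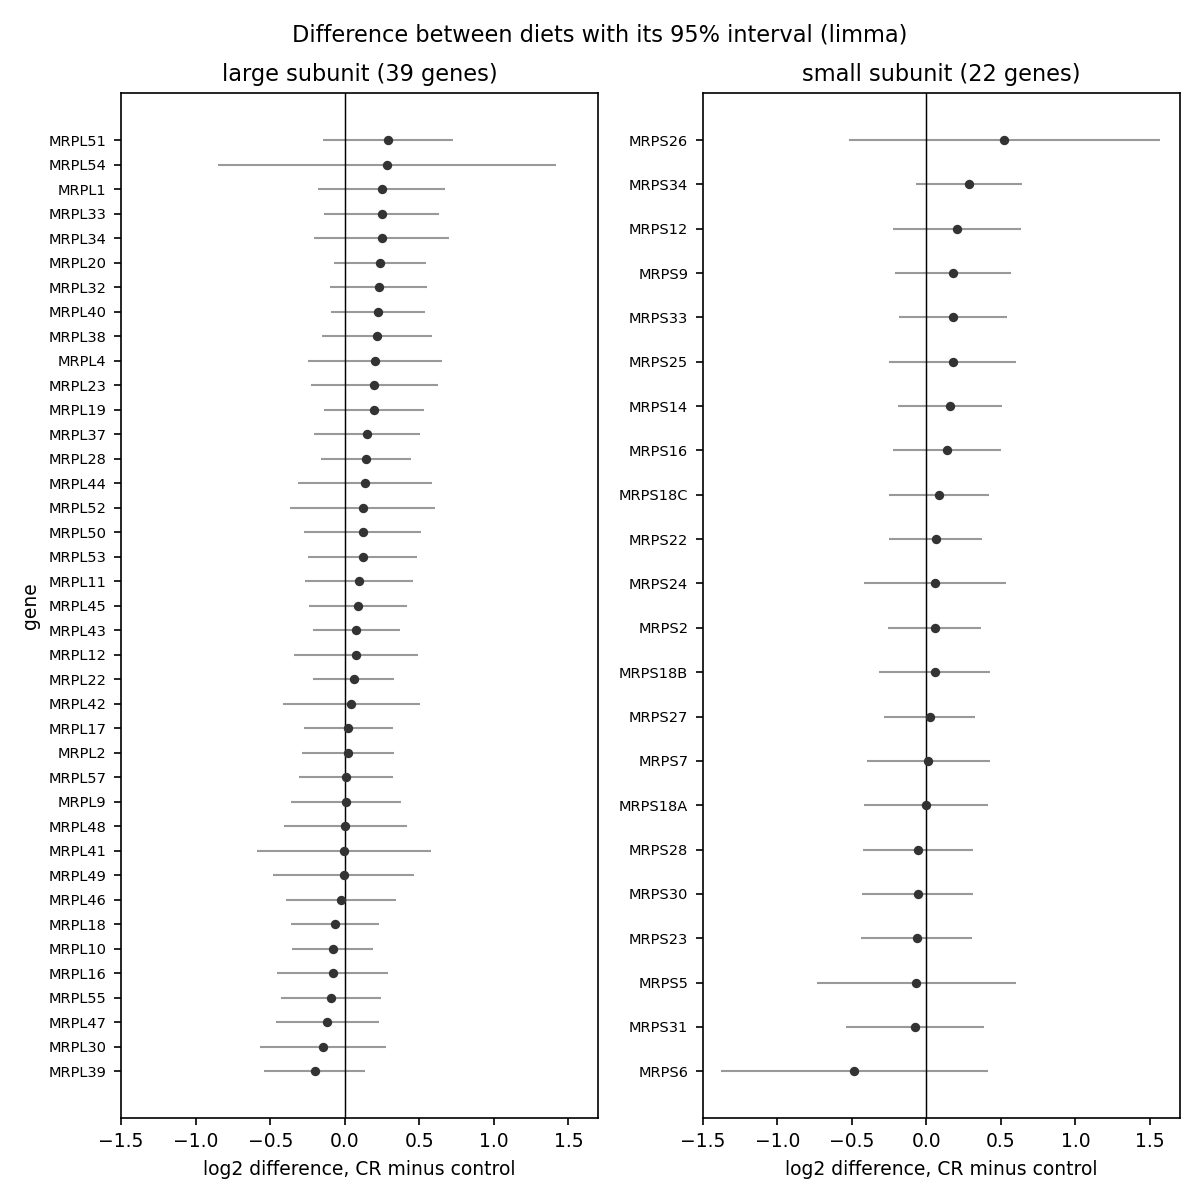
Log2 difference of CR minus control for each of the 61 tested genes (points) with its 95% interval from limma (bars), large subunit on the left and small subunit on the right. Each interval crosses 0, and those of MRPL54, MRPS26 and MRPS6 are the widest.

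The share of genes with a higher mean in CR rested on 1 control animal. Without control replicate 4 the count was 28 of 61 rather than 44, the median -0.0062 rather than 0.076, and the share over all 9812 genes 50.6%. Leaving that animal out turned 16 genes from higher to lower in CR and none the other way. The large subunit median was then -1.2e-05 and the small subunit median -0.034. Leaving out any other single animal left between 42 and 49 of 61 genes higher in CR.

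**Figure D2:**
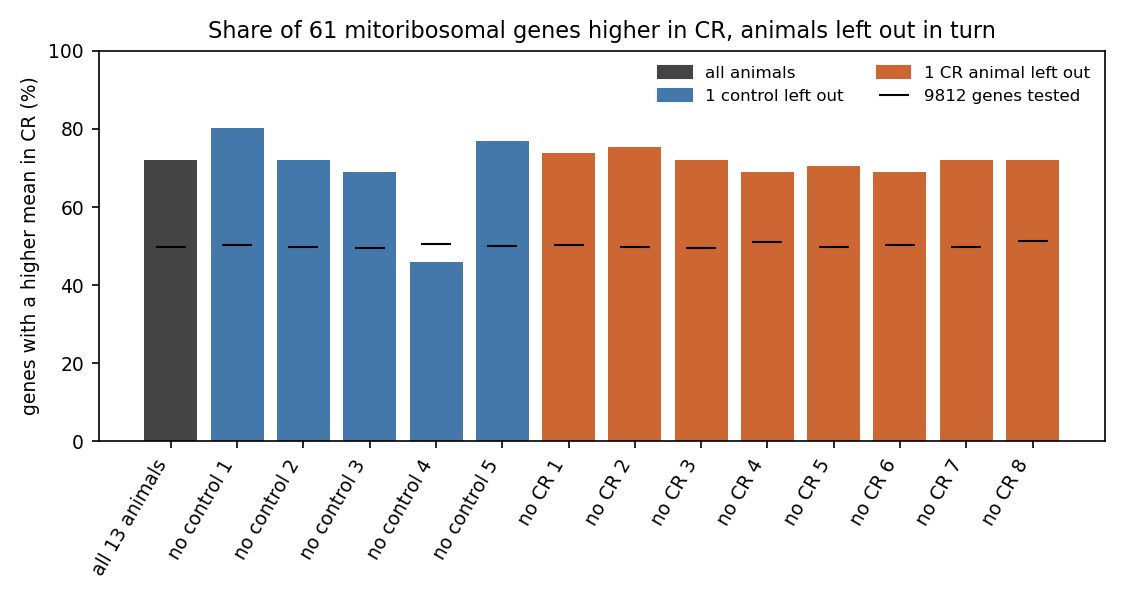
Percent of the 61 genes with a higher mean in CR, with all 13 animals and with each animal left out in turn (bars), and the same percent over 9812 genes (black lines). The bar falls from 72.1% to 45.9% without control replicate 4 and stays at 68.9% or above without any other animal.

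Control replicate 4 had the lowest signal of the 13 animals for 27 of 61 genes (44.3%), 14 of 39 in the large and 13 of 22 in the small subunit. Over all 9812 genes it was lowest for 16.7%. It was the highest animal for 0 of 61 genes, although it was highest for 19.3% of all genes. A total of 54 of the 61 genes were below their own 13-animal mean in it. CR replicate 2 came next, with 51 of 61 genes below their mean. It was the lowest CR animal for 29 of 61 genes, against 16.2% of all genes. At the other end CR replicate 3 was highest for 14 of 61 genes and CR replicate 6 for 9 of 61.

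**Figure D3:**
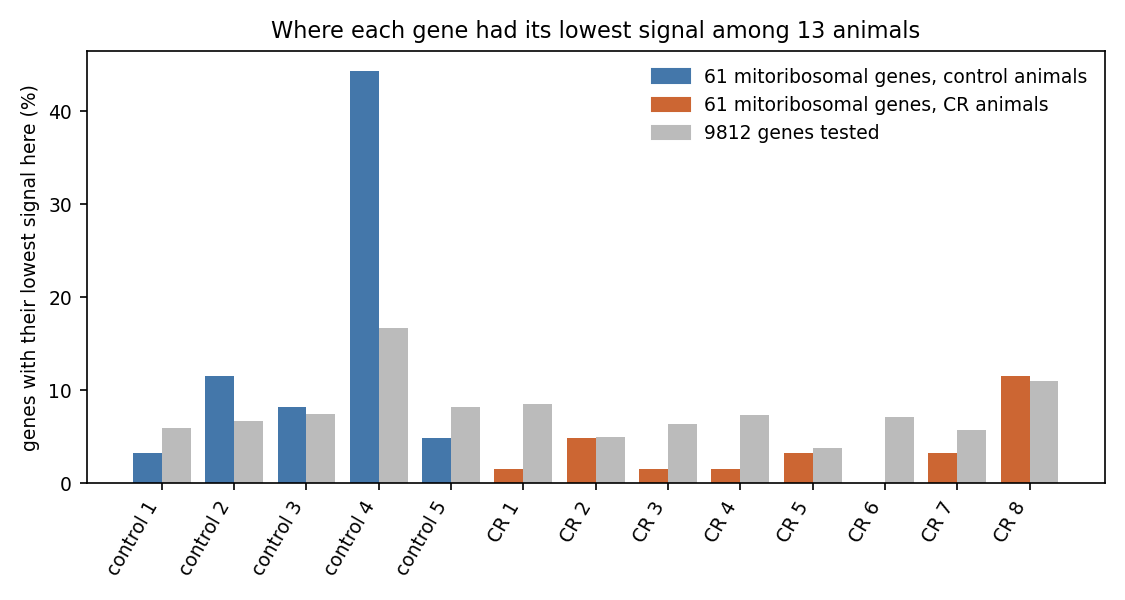
Percent of genes that had their lowest signal in each animal, for the 61 mitochondrial ribosomal protein genes (blue and orange bars, control and CR) and for all 9812 genes tested (grey bars). Control replicate 4 stands at 44.3% against 16.7% for all genes.

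The large and small subunits followed the same animals. To compare them, each gene was centred on its mean over the 13 animals and the median over a subunit was taken in each animal. In controls the large subunit medians were 0.081, 0.019, -0.14, -0.37 and 0.15 for replicates 1 to 5. In CR they lay between -0.24 and 0.18. The small subunit medians were 0.20, 0.029, -0.11, -0.43 and 0.16 in the controls and lay between -0.22 and 0.19 in CR. Control replicate 4 was lowest and CR replicate 2 next lowest for both subunits, and the diets overlapped for both.

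The mean large subunit score was -0.052 ± 0.21 (SD, n = 5) over the control animals, and over the CR animals it was 0.043 ± 0.15 (SD, n = 8). For the small subunit these means were -0.029 ± 0.25 (SD, n = 5) and 0.018 ± 0.14 (SD, n = 8). Within an animal the large minus small difference lay between -0.12 and 0.061 in controls and between -0.075 and 0.17 in CR. Its mean was 0.048 higher in CR, which is less than its SD of 0.078 between animals of a diet. No test was made of these scores, because their genes were chosen with results of these data known.

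**Figure D4:**
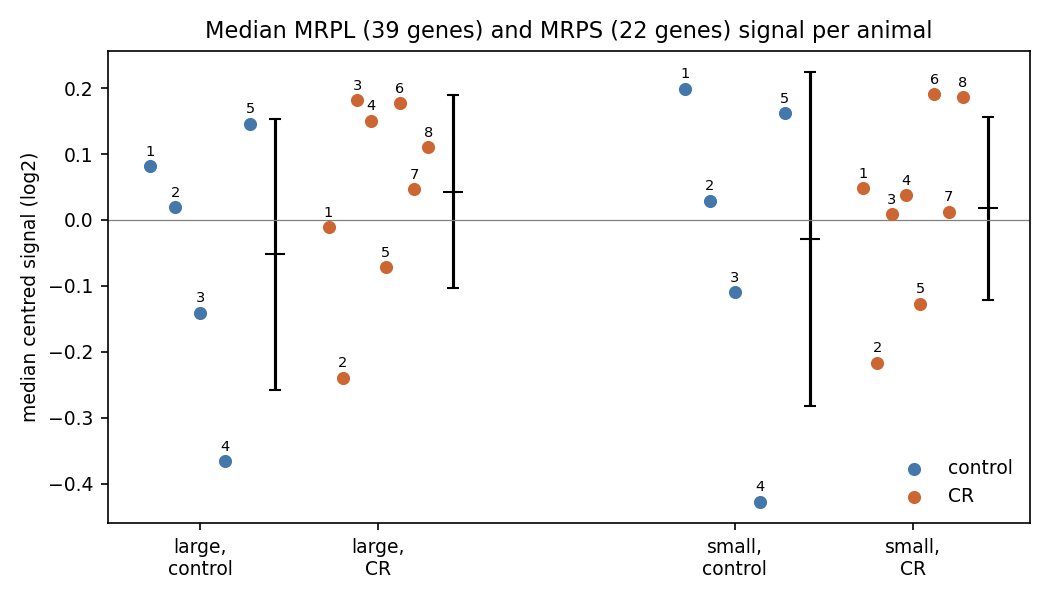
Median centred log2 signal of the 39 MRPL genes (left) and the 22 MRPS genes (right) in each animal, with replicate numbers beside the points and the mean ± SD of each diet as black bars. Control replicate 4, at -0.37 and -0.43, and CR replicate 2, at -0.24 and -0.22, are the lowest points of their diets in both subunits.

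Several lists of cell type markers also stood apart in these 2 animals. Medians of muscle markers (9 of 12 tested) ran from -0.67 to 0.31 in controls and from -0.32 to 0.48 in CR, and control replicate 4 and CR replicate 2 were the lowest of their diets. Endothelial markers (7 of 8 tested) ran from -0.31 to 0.97 in controls and from -0.82 to 0.66 in CR, with the same 2 animals highest. Adipocyte markers (3 of 5 tested) reached 1.78 in control replicate 4 and 2.15 in CR replicate 2, within ranges of -1.25 to 1.78 and -1.99 to 2.15. Schwann cell markers (2 of 5 tested) were 1.62 and 1.56 in these animals, in ranges of -1.28 to 1.62 in controls and -1.49 to 1.56 in CR. Of these 2 genes S100B was highest in control replicate 4, at 10.58. SOX10 was highest in CR replicate 3 and ran only from 7.47 to 7.90 in controls. In control replicate 4 and CR replicate 2 macrophage markers (5 of 6 tested) were 0.75 and 1.17, in ranges of -0.30 to 0.75 and -1.58 to 1.17.

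Fibroblast and matrix markers (5 of 6 tested) split the pair, at 1.54 in control replicate 4 and -0.30 in CR replicate 2, in ranges of -1.15 to 1.54 in controls and -0.59 to 0.39 in CR. Blood markers (4 of 6 tested) split it too, at 1.14 and -1.19, in ranges of -1.58 to 1.14 and -2.12 to 1.38. Between the diets 0 of 7 endothelial (median difference -0.33), 0 of 4 blood and 0 of 2 Schwann cell markers had a higher mean in CR, and without control replicate 4 it was 1 of 7, 2 of 4 and 0 of 2. For adipocyte, macrophage and matrix markers the counts were 1 of 3, 1 of 5 and 2 of 5, and without that animal 1 of 3, 1 of 5 and 5 of 5. Of the muscle markers 5 of 9 were higher, with a median of 0.21, and 5 of 9 with a median of 0.044 without it. The muscle marker TTN differed by -0.70 ± 0.32 (SE, unadjusted p = 0.0452 and adjusted p = 0.999 in limma). Among the tested markers the adipocyte gene ADIPOQ, the endothelial gene PECAM1 and the macrophage gene CD68 were all above the filter, with mean signals of 882.1, 2619 and 255.8. The 3-prime minus 5-prime log2 ratio of the actin control probe sets, a sign of RNA quality, was 2.41 in control replicate 4 and 1.66 in CR replicate 2, and between 1.06 and 2.08 in the other animals. For GAPDH this ratio was 0.73 in control replicate 4 and 0.61 in CR replicate 2, and between 0.30 and 0.91 in the other animals. With both ratios as covariates 37 of 61 genes were higher in CR, with a median of 0.071. The large subunit median was then 0.084 and the small subunit median 0.0091. The part of the other cell types in the low values and in the 44 of 61 was not tested.

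Related gene groups showed the same 2 animals to different degrees. Structural subunits of complex I, many of which the mitochondrial products join, had medians of -0.79 in control replicate 4 and -0.35 in CR replicate 2, the lowest of each diet. A list of mitochondrial content (8 of 13 tested), such as VDAC1, gave -0.52 and -0.15, again the lowest of each diet. Of these 8 genes 5 were higher in CR, and 1 without control replicate 4. Cytosolic ribosomal proteins gave -0.13 and -0.012, within ranges of -0.14 to 0.072 in controls and -0.10 to 0.20 in CR. Of 26 complex I genes 25 were higher in CR, the exception being NDUFA4L2, and 14 were higher without control replicate 4. The complex I and cytosolic ribosomal protein lists were taken by symbol. They therefore hold genes, such as NDUFA4L2, NDUFA4 and RPS19BP1, that need not be structural subunits of either complex. Of 39 cytosolic ribosomal protein genes 29 were higher, and 25 without that animal. Between pairs of genes, the median correlation of deviations from the diet means over the 13 animals was 0.29 for the 61 genes, 0.72 for complex I and 0.24 for cytosolic ribosomal proteins, and near 0 over all pairs of genes. It was 0.30 within the large subunit, 0.25 within the small subunit and 0.29 between them. Without control replicate 4 it was 0.22 for the 61 genes, 0.55 for complex I and 0.24 for cytosolic ribosomal proteins. These correlations are descriptions over arrays that share 1 scaling step, and no test was made of them.

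Not every gene followed the rest. The correlation of a gene with the median of the other 60, over deviations from the diet means, exceeded 0.5 for 35 of 61 genes. It was highest for MRPL34 (0.94), MRPL16 (0.92) and MRPS16 (0.91), whose proteins have bacterial counterparts. It was negative for MRPL18 (-0.52), MRPS28 (-0.25), MRPS22 (-0.24), MRPS6 (-0.21), MRPL57 (-0.17) and MRPS31 (-0.05). These values hold for the brightest probe set of a gene. Further tested probe sets correlated with the brightest at -0.476 for MRPS16, 0.294 for MRPS28, -0.115 for MRPS22, and 0.042 and 0.38 for MRPL57. MRPL18 belongs to the central protuberance, the part of the large subunit that faces the head of the small one. Its log2 signals were 10.77, 11.00, 11.34, 11.06 and 10.93 in control replicates 1 to 5, and 10.67, 11.04 and 11.11 as lowest, median and highest in CR. Control replicate 3 was highest for it, and control replicate 4 was not low.

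Among large subunit genes with a higher mean in CR, the lowest p-values belonged to MRPL20, MRPL32, MRPL40, MRPL51, MRPL33 and MRPL19. MRPL20, a protein with a bacterial counterpart, had log2 signals of 12.09, 12.04, 12.34, 11.88 and 12.02 in the controls and from 11.85 over a median of 12.30 to 12.58 in CR. It was above the control mean in 7 of 8 CR animals, and its difference of 0.24 ± 0.15 (SE) had an adjusted p of 0.999 in limma. MRPL32, which is matured by a protease of the inner membrane, had 11.41, 10.86, 11.45, 11.06 and 11.26 in controls and 11.01 to 11.70 with a median of 11.44 in CR. Control replicate 2 was its lowest animal, the ranges of the diets overlapped, and the difference was 0.23 ± 0.15, or 0.14 without that animal. MRPL40, of the central protuberance, had 12.29, 12.18, 11.99, 11.80 and 12.17 in controls and 11.81 to 12.57 with a median of 12.36 in CR. CR replicate 2 was the only CR animal below the control mean. The difference was 0.22 ± 0.15 (SE), and 0.15 without control replicate 4, the lowest animal.

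MRPL51, which has no bacterial counterpart, and MRPL33, which has one, were both lowest in control replicate 4. MRPL51 had 12.99, 13.22, 12.74, 12.37 and 13.46 in the controls and 12.71 to 13.65 with a median of 13.27 in CR. Its difference was 0.29 ± 0.21, and 0.23 and -0.037 on its other tested probe sets. Without control replicate 4 the first of these was 0.15. MRPL33 had 14.31, 13.93, 13.65, 13.35 and 14.18 in controls and 13.63 to 14.59 with a median of 14.14 in CR, and its difference of 0.25 ± 0.18 was 0.11 without that animal. For MRPL19 control replicate 2 was the lowest animal, at 10.25. Its difference was 0.20 ± 0.16, and 0.10 without that animal.

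Among large subunit genes with a lower mean in CR, MRPL39, MRPL47, MRPL30, MRPL10, MRPL55 and MRPL18 had the lowest p-values. MRPL39 had 10.39, 10.15, 10.04, 10.34 and 10.59 in controls and 9.76 to 10.49 with a median of 10.09 in CR. The difference of -0.20 ± 0.16 (SE) had an adjusted p of 0.999 in limma, and 2 of 8 CR animals were above the control mean. MRPL47, which sits at the exit of the peptide tunnel, differed by -0.12 ± 0.16, and by -0.0033 without control replicate 2. Its other tested probe set differed by 0.070 and correlated with the brightest at -0.097. MRPL10, the base of the stalk that receives translation factors, was even among controls, at 11.84, 11.97, 11.86, 11.94 and 11.96. In CR it ran from 11.56 to 12.17 with a median of 11.84, and its difference was -0.080 ± 0.13. The MRPL30 difference of -0.14 ± 0.20 lay between -0.26 and -0.072 with single animals left out and was 0.070 as the mean of its probe sets. The differences were -0.094 ± 0.16 for MRPL55, which was -0.00096 without control replicate 5, and -0.065 ± 0.14 for MRPL18, which was 0.014 without control replicate 3.

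By position in the large subunit, the stalk genes MRPL10, MRPL11, MRPL12, MRPL53 and MRPL54 had a median difference of 0.095, with 4 of 5 higher in CR, and 1 of 5 without control replicate 4. Genes around the tunnel exit (MRPL17, MRPL22, MRPL23, MRPL45 and MRPL47) had a median of 0.060, with 4 of 5 higher, and 0.0041 with 3 of 5 without that animal. In the central protuberance (MRPL18, MRPL38, MRPL40, MRPL46 and MRPL48) 3 of 5 were higher and the median was 0.0047, against 2 of 5 and -0.054 without it. Large subunit proteins with a bacterial counterpart had a median of 0.086 over 20 genes, and those without one 0.11 over 18 genes. In the small subunit these medians were 0.059 over 11 genes and 0.064 over 9 genes. Without control replicate 4 these 4 medians were 0.0078, -0.016, -0.025 and 0.039, in the same order. MRPL55, which differed by -0.094, was on neither of the large subunit lists. MRPS30 and MRPS18A encode proteins that lie in the large subunit despite their symbols, and they differed by -0.059 and -0.0021.

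Among small subunit genes with a higher mean in CR, MRPS34 had the lowest p of the 61 genes. MRPS34, whose loss impairs mitochondrial translation in patients and mice, had 11.36, 11.62, 11.02, 10.78 and 11.51 in controls and 11.30 to 11.94 with a median of 11.53 in CR. All 8 CR animals were above the control mean, but 3 of the 5 controls lay inside the CR range. Its difference was 0.29 ± 0.17 (SE, adjusted p = 0.999 in limma), and 0.17 without control replicate 4. MRPS12, a protein of the decoding centre, had 11.19, 11.55, 11.12, 10.51 and 11.88 in controls and 11.00 to 11.90 with a median of 11.45 in CR. Its difference of 0.20 ± 0.20 was 0.020 without control replicate 4. MRPS33, MRPS9 and MRPS14 differed by 0.18 ± 0.17, 0.18 ± 0.18 and 0.16 ± 0.17. The MRPS9 difference was 0.044 without control replicate 2, and the MRPS33 difference was 0.083 without control replicate 4.

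Among MRPS genes with a lower mean in CR, MRPS6 had the largest difference in size. Its brightest probe set was dim, with 7.90, 7.14, 7.49, 7.28 and 6.26 in controls and 5.27 to 7.81 with a median of 6.79 in CR. The difference was -0.48 ± 0.42 (SE, adjusted p = 0.999 in limma), and -0.27 without CR replicate 5, the lowest animal. MRPS5, which lines the entry path of the message, had 9.79, 9.59, 8.58, 7.97 and 10.11 in controls and 8.53 to 9.61 with a median of 9.24 in CR. Its controls spread more (SD 0.90) than its CR animals (SD 0.38), and the difference was -0.067 ± 0.32. Leaving out control replicate 4 gave -0.38. It was above 0 without control replicate 1, 2 or 5 or CR replicate 3, at most 0.16. The differences of MRPS23, MRPS31, MRPS28 and MRPS30 (whose protein lies in the large subunit) lay between -0.078 and -0.055, and each was above 0 without control replicate 3. MRPS23 was above 0 also without CR replicate 2, MRPS31 without control replicate 1, and MRPS30 and MRPS28 without CR replicate 8.

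The 32 tested genes outside these 24, MRPL54 and the 4 genes described by their further probe sets (MRPL4, MRPL38, MRPL57 and MRPS25) lay within a narrower band. The 23 in the large subunit differed by -0.081 to 0.25, with 19 higher in CR. The 9 in the small subunit differed by -0.0021 to 0.14, with 8 higher in CR. The 24 had been taken by lowest p, in equal numbers per direction and subunit, although 44 of the 61 genes were higher and 17 lower. A larger share of the lower genes was thereby removed, so these counts and the narrower band follow in part from the selection. They include control replicate 4, without which the count over the 61 genes was 28.

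The spread between animals was far larger for a few genes than for the rest. The ratio of the highest to the lowest of the 13 animals had a median of 2.02-fold and was 1.36-fold for MRPL22, the most even gene. It exceeded 4-fold for 4 genes, MRPL54 (13.7), MRPS26 (10.9), MRPS6 (6.18) and MRPS5 (4.43). MRPL54, a stalk protein, had log2 signals of 9.16, 11.59, 7.81, 8.83 and 10.60 in controls and 8.63 to 10.96 with a median of 9.90 in CR. Its lowest and highest values were both in controls, replicates 3 and 2. The difference was 0.28 ± 0.54 (SE, adjusted p = 0.999 in limma). Without control replicate 3 it was -0.17, and leaving out control replicate 2 instead gave 0.78. MRPL54 was named after its values were seen.

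MRPS26, a small subunit protein with no bacterial counterpart, had 12.13, 12.05, 12.55, 12.22 and 10.47 in control replicates 1 to 5. In CR replicates 1 to 8 it had 11.01, 12.23, 12.34, 13.92, 10.85, 13.43, 11.99 and 13.49. A group of 3 animals lay at 11.01 or below, 7 lay between 11.99 and 12.55, and 3 lay at 13.43 or above. The 3 highest were CR replicates 4, 6 and 8, and the 3 lowest were control replicate 5 and CR replicates 1 and 5. A second MRPS26 probe set had a narrower range, 1.79-fold against 10.9-fold, and a correlation of 0.75 with the first over the 13 animals. The same 3 CR animals were highest on it, at 12.07, 12.03 and 12.15, while control replicate 5 and CR replicate 5, at 11.63 and 11.60, were not low. CR replicate 1 was the lowest of the 13 on it, at 11.31. The diet difference was 0.52 ± 0.49 (SE, adjusted p = 0.999 in limma) on the first probe set and 0.082 on the second, and 0.17 on the first without control replicate 5.

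**Figure D5:**
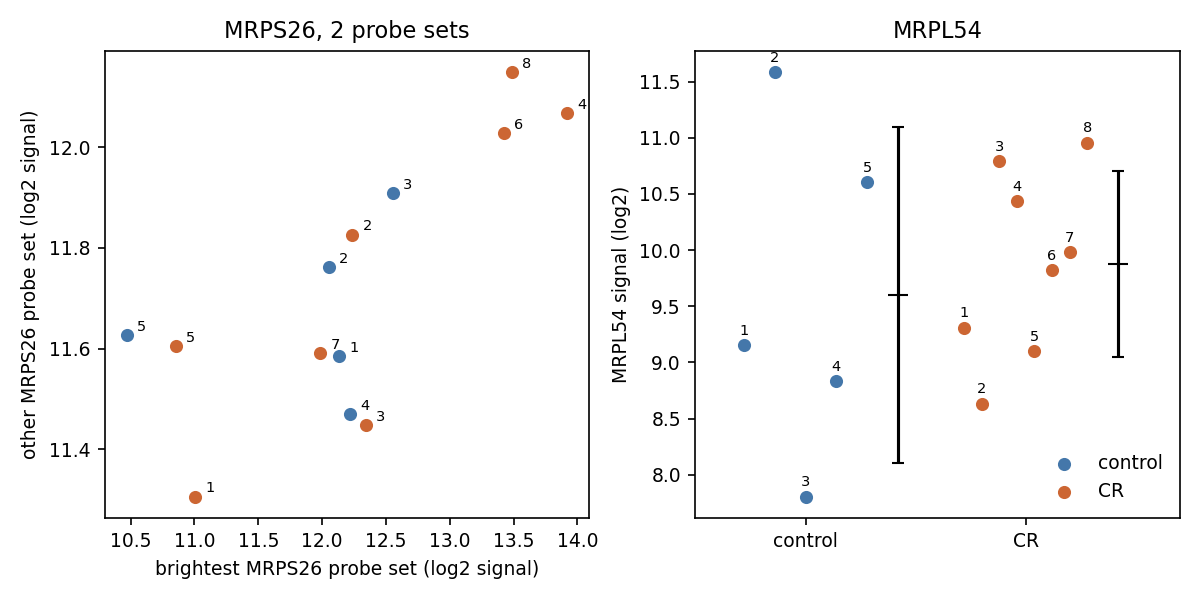
Left, log2 signals of the brightest MRPS26 probe set (x axis) and of the other one (y axis) in each animal. Right, log2 signal of MRPL54 in each animal with the mean ± SD of each diet. Control animals are blue and CR animals orange, and numbers are replicates. CR replicates 4, 6 and 8 are highest on both MRPS26 probe sets, and MRPL54 spans 7.81 to 11.59 among controls.

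Further probe sets of a gene often gave another direction. Of 21 genes with more than 1 tested probe set, 7 had the same direction on each and 14 did not. The widest spans among the 14 were from -0.45 to 0.29 for MRPL57, -0.067 to 0.62 for MRPS5, -0.10 to 0.37 for MRPS25, -0.24 to 0.22 for MRPL38, -0.14 to 0.29 for MRPL30 and -0.22 to 0.20 for MRPL4. For MRPS5 the probe sets ranked animals alike, with a correlation of 0.70, and control replicate 4 was lowest on both, at 7.97 and 5.07. For MRPL38 the correlation was 0.039. On its brightest probe set MRPS25 turned from higher to lower in CR without control replicate 4, at -0.043. For MRPS12, by contrast, all 3 probe sets were higher in CR, by 0.090 to 0.24, and correlated with the brightest by at least 0.60.

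Proteins of the mitochondrial ribosome that carry other symbols gave similar values. The 4 that were tested were all higher in CR and none passed limma's test. DAP3, a GTP-binding protein of the small subunit, differed by 0.23 ± 0.20 (SE), CHCHD1 by 0.18 ± 0.17, GADD45GIP1 by 0.14 ± 0.16 and AURKAIP1 by 0.034 ± 0.17. Without control replicate 4 the 4 genes were still higher, with a median of 0.096 against 0.16 with it. Single animals lowered these values to 0.12 for DAP3 (without CR replicate 5), 0.087 for CHCHD1 (without control replicate 4) and 0.033 for GADD45GIP1 (without control replicate 3). AURKAIP1 was below 0, at -0.039 or above, without control replicate 3 or CR replicate 5, 6 or 7.

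Factors that work with the ribosome were not called either. Among 13 mitochondrial translation factors 8 were higher in CR, with a median of 0.11, or 0.041 without control replicate 4. MTRF1L, a release factor, differed by 0.36 ± 0.26 (SE), MTIF3, an initiation factor, by 0.24 ± 0.21, and TUFM, the elongation factor that delivers aminoacyl-tRNA, by 0.25 ± 0.18. MTRF1L was at 0.15 without control replicate 4, MTIF3 at 0.067 without control replicate 2 and TUFM at 0.14 without control replicate 3. Of 16 genes that charge mitochondrial transfer RNAs, 10 were higher, with a median of 0.016, and 6 without control replicate 4, with a median of -0.032. GATC, a subunit of the enzyme that makes glutaminyl-tRNA, differed by -0.27 ± 0.17, with 1 of 8 CR animals above the control mean. The methionyl enzyme MARS2 differed by 0.21 ± 0.18, and by -0.087 as the mean of its probe sets. The tryptophanyl enzyme WARS2 differed by 0.19 ± 0.22, and by -0.48 as that mean. Without control replicate 2 these differences were 0.11 and 0.054.

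Among 20 genes of ribosome assembly and ribosomal RNA modification 17 were higher in CR, with a median of 0.055, and 9 were higher without control replicate 4. NSUN4, a methyltransferase that acts on the small ribosomal RNA and helps to join the subunits, differed by 0.89 ± 0.34 (SE), with 8 of 8 CR animals above the control mean. Its unadjusted p was 0.020 and its adjusted p 0.999 in limma, and the difference was 0.48 without control replicate 1 and 0.35 as the mean of its probe sets. GTPBP10, a GTPase of large subunit assembly, differed by 0.36 ± 0.20, and MRM1, which methylates the large ribosomal RNA, by -0.42 ± 0.25. Of 10 genes of mitochondrial transcription and RNA processing 4 were higher and 6 lower. PNPT1, an exoribonuclease, differed by 0.27 ± 0.23 and by 0.054 without control replicate 5, FASTKD3 by -0.14 ± 0.15 and the transcription elongation factor TEFM by 0.13 ± 0.15.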

How the data were processed

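Biotin-labelled muscle RNA was read on Affymetrix arrays of 1 colour. The authors deposited a linear intensity for each probe set and array, computed with MAS5 per the submitters' processing notes. No other step is given in the sources used here. Of 52865 probe sets 99 control probe sets were removed, signals were floored at 1 (137 values, 0 of them in the genes described) and log2 transformed. Symbols came from the platform annotation, and the 62 genes matched RefSeq gene IDs. RefSeq lists 77 MRPL and MRPS genes, and the other 15 were not analysed here.

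Diets were compared over all tested probe sets in limma 3.58.1 (R 4.3.3; lmFit, then eBayes with an intensity trend), two-sided, at a Benjamini-Hochberg adjusted p under 0.05, which was checked on simulated data. The SE and intervals are limma's. The labels give 1 animal for each array, and the diets share replicate numbers only as numbers. Named genes were the 6 with the lowest p per direction and subunit, up to 6 with the widest disagreement between probe sets, the ribosomal proteins with other symbols, and up to 3 per related list. The genes and lists were chosen with earlier results of these data known. Alternatives covered normalization, median centring, an offset of 16, the filter, eBayes without the trend, array weights, RNA quality covariates, averaging the probe sets of a gene, a replicate block, the exact rank-sum test, other subunit assignments and means, and each animal left out. Leaving out control replicate 4 and CR replicate 2 together was chosen after seeing the data. No scan date or batch is given in the sources used here. Figures were drawn with matplotlib 3.10.9.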

Additional observations from a re-analysis of the deposited data

Results flagged for a closer look

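Samples far from the rest of their diet group, by the gap to the nearest animal relative to the range of the group, were sought for the named genes and the subunit scores. Of 96 groups 9 held such a sample, where chance gives about 1 in 20, or 4.80, for unselected and independent groups. The named genes were chosen with results of these data known and share the same 13 animals. The 9 therefore cannot be tested against the 4.80. Control replicate 4 was the lowest control for MRPS23, at a log2 signal of 11.93 with the next at 12.61, and for MRPS33, at 12.35 with the next at 12.74. Control replicate 5 was the lowest control for MRPS26, at 10.47 with the next at 12.05.

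The other 6 were in genes that act on the ribosome or on mitochondrial RNA. MRM1 was lowest at 7.98 in control replicate 3 among controls and at 7.05 in CR replicate 1 among CR animals. WARS2 was lowest at 8.35 in CR replicate 1, GTPBP10 at 8.20 in CR replicate 2 and FASTKD3 at 8.74 in CR replicate 5. TEFM was highest at 10.07 in control replicate 1.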

How the results depend on the processing

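Under the alternatives run, 0 of the mitochondrial ribosomal protein genes passed, and the lowest adjusted p of a named gene was 0.903. With single animals left out the count of probe sets called over the whole array ranged from 0 to 1 (1 without control replicate 1 and 1 without control replicate 5). With all 13 animals the large subunit median was 0.091, the small subunit median 0.057 and the large minus small difference 0.048. With single animals left out they ranged from -1.2e-05 to 0.16 for the large subunit, from -0.034 to 0.14 for the small subunit and from 0.014 to 0.080 for the difference, the lowest of the first 2 without control replicate 4. Under the other alternatives they lay between 0.028 and 0.13, between 0.0077 and 0.097 and between 0.011 and 0.074. Without both control replicate 4 and CR replicate 2, 36 of 61 genes were higher in CR, with a median of 0.024. Median centring moved the median of all tested probe sets from -0.012 to 0.028 and gave 48 of 61 genes higher. Array weights (lowest, 0.48, for control replicate 4) gave 37 of 61, with a median of 0.029.

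Of 45 named genes 29 kept their direction under each alternative and each animal left out. Averaging the probe sets of a gene, the difference turned to 0.070 for MRPL30, 0.071 for MRPS30, 0.28 for MRPS5, -0.051 for MRPL57, -0.014 for MRPL38, -0.055 for MRPL4, -0.087 for MARS2 and -0.48 for WARS2. With RNA quality covariates it turned to 0.023 for MRPL18, -0.0057 for MRPS9, 0.042 for MRPS28 and -0.062 for AURKAIP1. After quantile normalization it was -0.0032 for MRPL57, and -0.030 without control replicate 4 and CR replicate 2. The cause of these turns was not tested, apart from the other probe sets entering the mean.

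With single animals left out, differences that changed sign ranged from -0.13 to 0.014 for MRPL18, -0.22 to 0.014 for MRPS23, -0.22 to 0.035 for MRPS31, -0.14 to 0.016 for MRPS30, -0.15 to 0.035 for MRPS28, -0.38 to 0.16 for MRPS5, -0.089 to 0.097 for MRPL57, -0.043 to 0.29 for MRPS25, -0.039 to 0.13 for AURKAIP1 and -0.17 to 0.78 for MRPL54.

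With the replicate block 0 genes were called and 38 of 61 were higher in CR, with a median of 0.051. The block turned the difference to 0.052 for MRPL18, 0.065 for MRPS28 and -0.024 for AURKAIP1, and changed no call. Same-numbered animals did not deviate together, with correlations from -0.20 to 0.020 over the tested probe sets, and 0 of 5 controls correlated best with the CR animal of its own number. MRPS6, MRPS31, NSUN4, GTPBP10, MARS2, MRM1 and GATC were too dim for the fit on the brightest 25%. Precision is limited by the number of arrays, and signal over background was not measured.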
